A study of Mus musculus with 319 samples.

Results

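C1qb, C1qc, C2 and Cfb are genes of the complement system, and their transcript ratios were followed across the muscle of 319 mice. They were taken as all probes that the platform table assigns to these 4 symbols, which gave 1 probe for each, 4 probes of 23382 in all and 4 of the 10755 named genes kept for testing, those measured on 80% of arrays or more. The animals were an F2 intercross of C57BL/6J and C3H/HeJ in which both parent strains were ApoE null, so every animal studied lacked ApoE. Females and males were included, and all received a Western diet high in fat between weeks 8 and 24 of age. Total RNA of muscle from each animal, labelled with Cy3, was hybridised on a 2-colour array against a pool of equal portions of all the RNAs, labelled with Cy5. The labels name no muscle, genotype or batch, so the 319 arrays formed 1 group, counted as 319 animals although 2 arrays carry the number 227, and every result below is a relation across animals.

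Complement is a cascade of plasma proteins that marks particles and cells for removal. C1q, built from A, B and C chains encoded by the neighbouring genes C1qa, C1qb and C1qc, recognises antibody complexes and dying cells and starts the classical pathway, and tissue macrophages are its best known source. C2 and factor B (Cfb) are related serine proteases, C2 the catalytic part of the C3 convertase of the classical and lectin pathways and factor B that of the alternative pathway, and their genes lie beside each other in the major histocompatibility complex. Both are made by liver and by several cell types of tissues, and interferon gamma is a known inducer of both.

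Promoter sequence was at hand for C1qb and C1qc, the pair with the closest relation across animals, and is shown so that the stretch before each start can be compared. Both are from RefSeq on the build GRCm38.p6, on the minus strand of chromosome 4, and end at the base before the annotated start. The C1qb stretch spans chr4:136886201-136886450 and the C1qc stretch chr4:136892915-136893164. Capitals mark 2 motifs searched on both strands, GAGGAA (the core bound by the macrophage factor PU.1) and TGCTGA (a half-site of Maf factors), which do not overlap each other here.
C1qb: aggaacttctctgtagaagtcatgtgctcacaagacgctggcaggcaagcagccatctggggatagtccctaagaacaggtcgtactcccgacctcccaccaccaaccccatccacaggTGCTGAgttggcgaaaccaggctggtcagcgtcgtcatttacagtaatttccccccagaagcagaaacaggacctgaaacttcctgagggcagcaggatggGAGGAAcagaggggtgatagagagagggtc
C1qc: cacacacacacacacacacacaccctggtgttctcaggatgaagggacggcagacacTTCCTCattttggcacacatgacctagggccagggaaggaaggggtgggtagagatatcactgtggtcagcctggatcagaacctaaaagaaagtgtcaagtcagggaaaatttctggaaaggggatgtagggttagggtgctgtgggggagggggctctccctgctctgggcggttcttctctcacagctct
C1qb held 1 match to GAGGAA, 30 to 25 bases before the start, and 1 to TGCTGA, 131 to 126 bases before it. C1qc held 1 match to GAGGAA, 193 to 188 bases before the start and on the opposite strand, and none to TGCTGA. Of 32851 promoter stretches of 250 bases, 23.3% held GAGGAA and 16.1% held TGCTGA. Neither stretch held the interferon-type element, GAAA repeated after 2 bases of any kind, found in 2.98% of stretches, or the STAT-type element TTCNNNGAA, found in 7.02%.

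The deposited values were log10 ratios and are given here as log2 ratios of an animal to the pool. The labels give the dyes but not the direction of the ratio. Y-linked Eif2s3y had a median of -5.62 on 164 arrays and 1.08 on 155, so a negative ratio was read as an animal having less of a transcript than the pool. The medians of the arrays ran from -0.08 to 0.14 and their SDs over probes from 0.213 to 1.08. Pairs of arrays correlated over all probes at between -0.601 and 0.848, with 3735 of 50721 pairs under -0.3. No array was turned round, as the labels give Cy3 to each animal and Cy5 to the pool. The highest Eif2s3y value on the 164 arrays was -3.71, and the lowest on the 155 was -0.789. Every relation below pools the 164 and the 155 arrays. Differences of the 4 genes or of the scores between them, and so between the sexes, were not tested. A score of lymphocyte genes (14 of 18 measured) separated 57 arrays from 262, with their means 5.78 within-group SDs apart, so r is also given within each side of that split. Skeletal muscle could be checked only in part, as 1 gene of 15 on its marker list, Pygm, was measured besides 9 of 10 genes of slow fibres, and a ratio to a pool of the same tissue does not show a level.

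All 4 genes were measured on all 319 arrays, and none reached the limit of the deposited scale. C1qb had the narrowest spread, with a lowest log2 ratio of -1.0, a median of -0.14 and a highest of 1.91 (SD 0.39, n = 319). C1qc ran from -2.14 through a median of -0.32 to 2.08 (SD 0.69). C2 ran from -2.03 through -0.44 to 1.26 (SD 0.61), and Cfb from -3.10 through -0.74 to 1.75 (SD 0.93). Most animals therefore had a ratio below the pool, with 108 above it for C1qb, 103 for C1qc, 83 for C2 and 73 for Cfb. Every animal carried Cy3 and the pool Cy5, so a shift of a probe's ratios by dye was not tested. Between the 5th and the 95th percentile of animals the ratio differed by 2.4-fold for C1qb, 4.75-fold for C1qc, 3.78-fold for C2 and 8.29-fold for Cfb. Of all tested probes, 81.6% had a smaller SD than C1qb, 95% than C1qc, 93.1% than C2 and 97.5% than Cfb. How far a probe's ratio is compressed was not measured, so these spreads are those of the probes.

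**Figure D1:**
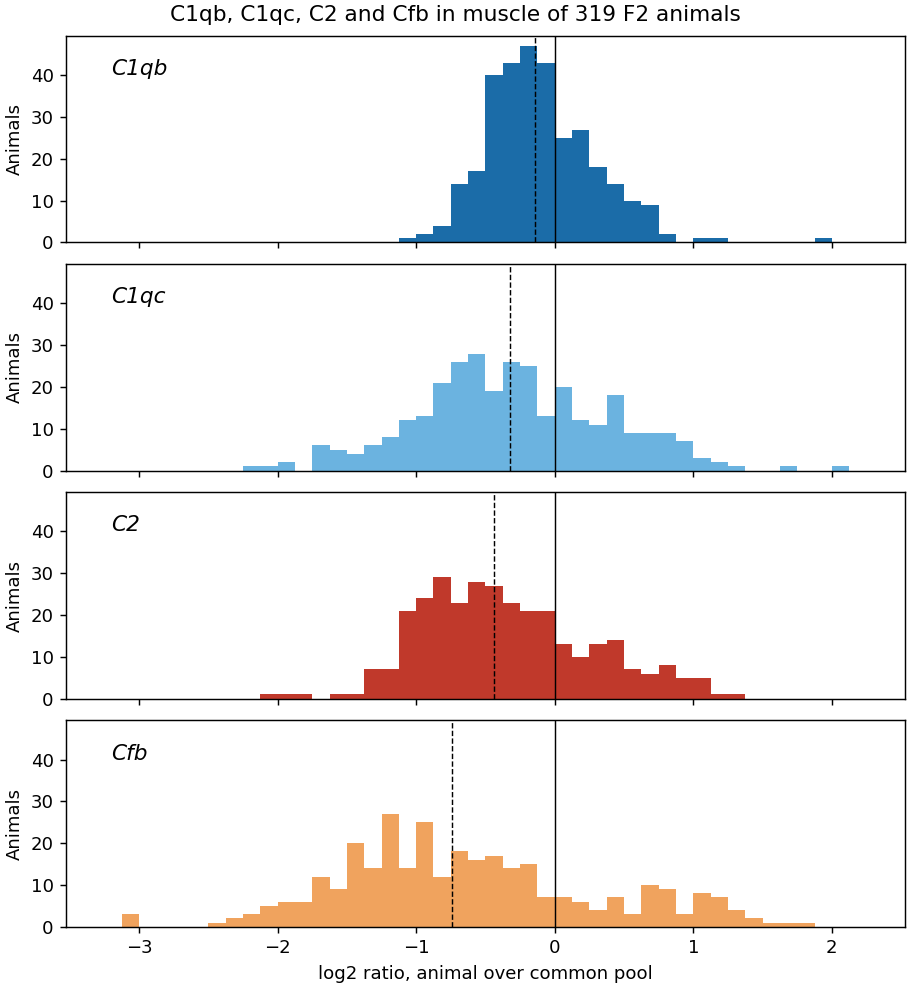
Number of animals (vertical axis) by log2 ratio to the common pool (horizontal axis, bins of 0.125) for each gene. The solid line marks the pool and the dashed line the median, which lies below the pool for all 4 genes and furthest below for Cfb, at -0.74.

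No gene fell into separate clusters of animals: the best split in 2 put the means of the sides 2.73 to 2.96 within-group SDs apart, under the limit of 4. The same animals stood at the ends of several of the 4 distributions. Animal 195 was highest for C1qb (1.91) and C1qc (2.08) and had 1.09 for C2 and 0.99 for Cfb. Animal 75 was highest for C2 (1.26) and had 1.73 for Cfb, and animal 147 was highest for Cfb (1.75). All 3 lay above the lymphocyte split. Animal 258 was lowest for C1qc (-2.14) and C2 (-2.03) and had -3.04 for Cfb, close to the lowest Cfb value of -3.10 in animal 332. Animal 14, lowest for C1qb at -1.0, had -3.08 for Cfb. Of the 10 highest animals for each gene, C2 and Cfb shared 7 and C1qb and C1qc shared 5, and 2 were among the 10 highest for all 4 genes.

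The 4 genes rose and fell together across animals, most closely within the neighbouring pairs. C1qb and C1qc, the B and C chains of C1q, had r = 0.933 (rho 0.935, n = 319), and C2 and Cfb, the paired proteases, had r = 0.910 (rho 0.877). Between the pairs r was lower, at 0.735 for C1qb with C2, 0.753 for C1qb with Cfb, 0.833 for C1qc with C2 and 0.840 for C1qc with Cfb. All 6 relations passed (permutation p = 1e-05, the smallest that 100000 resamples can give, adjusted p 1e-05 over the 6 pairs). Without the 2 animals farthest from the median of the first gene, r stayed between 0.727 and 0.934. Below the lymphocyte split r was 0.925 for C1qb with C1qc and 0.825 for C2 with Cfb (n = 262), and above it 0.928 and 0.879 (n = 57). C1qa, the A chain, followed C1qb at 0.865, C1qc at 0.874, C2 at 0.792 and Cfb at 0.840. These are ratios in RNA of whole muscle, in which fewer cells of a type and less RNA per cell cannot be told apart.

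**Figure D2:**
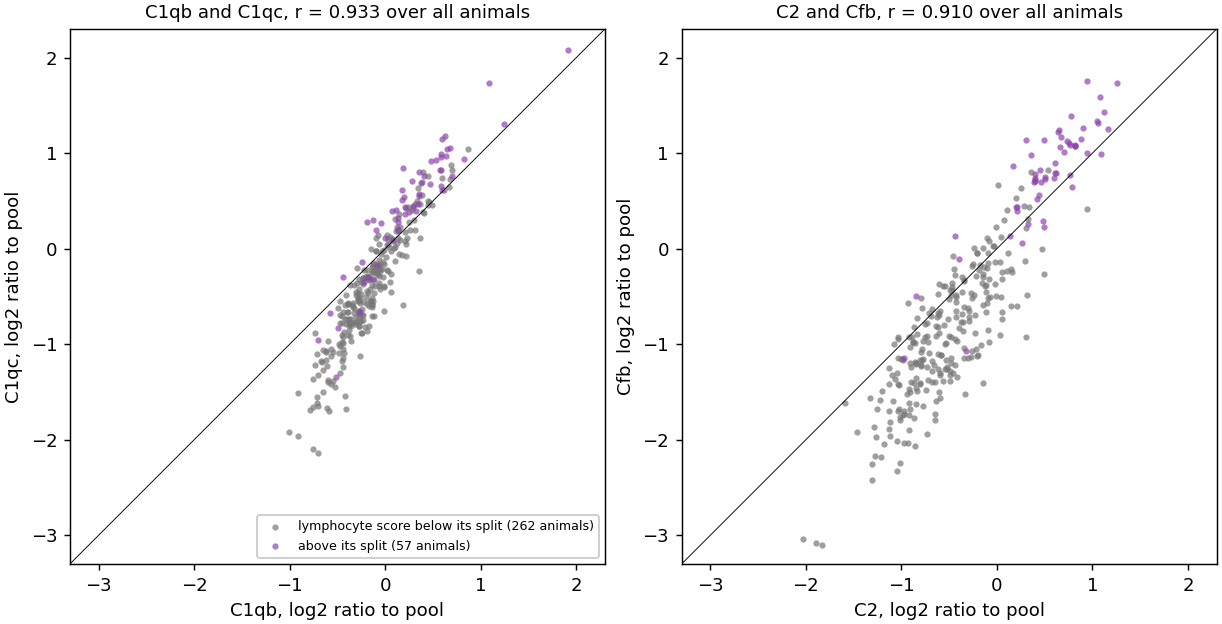
Log2 ratios to the pool of C1qc against C1qb (left) and of Cfb against C2 (right), 1 point per animal, with the diagonal of equal ratios. Animals above the lymphocyte split (57, purple) lie mostly at the upper end, and the points of each pair follow a line steeper than the diagonal, r = 0.933 and 0.910.

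Read as a rank over the whole array, the neighbouring partner was among the very closest genes. C1qc was the gene of highest r with C1qb among 10754 other genes, and C1qb was the highest with C1qc. Cfb was first for C2, whereas C2 took place 3 for Cfb, behind Tmem176b (r = 0.921) and Ctss (0.912). Across the pairs the places were lower, with C2 at place 16 and Cfb at 12 for C1qc, and C1qb at place 299 for C2 and 322 for Cfb. The number of genes with r above 0.8 was 15 for C1qb, 35 for C1qc, 111 for C2 and 167 for Cfb.

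Macrophage genes followed all 4 genes. A score was formed as the mean of 23 of 28 listed macrophage genes, each standardised, with no complement gene in it. Its r was 0.837 with C1qb, 0.889 with C1qc, 0.872 with C2 and 0.916 with Cfb (permutation p = 1e-05 each, adjusted p 1.33e-05 over 16 relations, n = 319). On the lower side of the lymphocyte split the values were 0.863, 0.878, 0.742 and 0.842, and above it 0.778, 0.854, 0.833 and 0.818. In the limma fit of every probe on this score, 7.84% of 23167 probes were called higher (adjusted p under 0.05 and r at least 0.5), and all 4 members were among them. With the first principal component over all probes removed, r was 0.757 for C1qb, 0.779 for C1qc, 0.469 for C2 and 0.643 for Cfb. In that setting 150 of 23167 probes were called higher, C1qb, C1qc and Cfb among them but not C2. With the array medians subtracted, the probes called on this score changed from 1817 higher and 1723 lower to 2334 and 510, and with quantile normalization to 1750 and 960. Of the 24 differences tested between members, C1qc lay closer to the macrophage score than C1qb did (0.889 against 0.837, permutation test adjusted p = 0.0389), and for no other pair did the relation with this score differ beyond the threshold (adjusted p 0.111 to 0.713).

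The members of the macrophage list did not move as a block. Of its 23 genes, 17 had r of at least 0.5 with each of the 4 complement genes, and the median was 0.684 with C1qb, 0.758 with C1qc, 0.762 with C2 and 0.809 with Cfb, against -0.086 to -0.133 over all genes. Csf1r, the receptor for the growth factor of macrophages, had 0.932 with C1qc and 0.886 with C2. The Fc receptor genes Fcgr3 and Fcgr1 had 0.870 each with C1qb, and Ctss, a lysosomal protease of antigen-presenting cells, had 0.912 with Cfb. At the other end, Cx3cr1, the fractalkine receptor of resident macrophages and monocytes, had -0.159, -0.313, -0.358 and -0.306 with C1qb, C1qc, C2 and Cfb. Spi1, which encodes PU.1, lay between -0.106 and 0.079. Cd68, a lysosomal protein used as a macrophage marker, had 0.352 with C1qc, 0.339 with C2 and 0.422 with Cfb.

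With the macrophage score held constant, r stayed at 0.569 or more within the neighbouring pairs and fell to 0.261 or less between them. The residual r was 0.753 for C1qb with C1qc and 0.569 for C2 with Cfb (permutation p = 5e-05 each, adjusted p 0.0001, the raw value being the smallest that 20000 resamples can give). It was 0.261 for C1qc with C2 (adjusted p = 0.0001) and 0.143 for C1qc with Cfb (adjusted p = 0.0159). For C1qb it was 0.022 with C2 and -0.060 with Cfb, neither past the permutation test (adjusted p = 0.698 and 0.345). This setting was chosen after the data were seen.

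The interferon response score (21 of 27 genes) itself fell into clusters, 50 arrays lying 4.29 within-group SDs above the other 269, and 46 of the 50 were also above the lymphocyte split, so r is given on each side. Among the 269 animals below, r was 0.568 with C1qb, 0.629 with C1qc, 0.618 with C2 and 0.538 with Cfb (permutation p = 1e-05 each, adjusted p 1.33e-05). Among the 50 above, it was 0.389, 0.342, 0.338 and 0.420 (adjusted permutation p 0.003 to 0.0158). In the limma fit over all arrays, 7.25% of 23168 probes were called higher with this score, all 4 genes among them. With the first principal component removed 14 of 23168 probes were called higher, and none of the 4 was among them. Subtracting the array medians turned 1679 higher and 1322 lower into 2201 and 395, and quantile normalization into 1606 and 593. Among list genes, Parp14 had r = 0.804 with C2 and 0.803 with Cfb over all arrays, and Oasl1 had 0.668 with C1qb, whereas Rsad2 had 0.069, 0.119, 0.060 and 0.021 with C1qb, C1qc, C2 and Cfb. Stat2, a transcription factor of the interferon signal, had 0.790 with C2, and Xaf1 was lowest with -0.415. The median r of the 21 list genes over all arrays was 0.480, 0.597, 0.652 and 0.630 with C1qb, C1qc, C2 and Cfb. It was 0.352, 0.454, 0.416 and 0.326 below the lymphocyte split. With the macrophage score held over all arrays it was -0.081, -0.066, 0.138 and 0.058.

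Against an adipocyte score (13 of 21 genes) the 2 pairs parted. Over all 319 animals r was 0.440 with C1qb and 0.505 with C1qc, and 0.641 with C2 and 0.675 with Cfb (permutation p = 1e-05 each, adjusted p 1.33e-05). C2 and Cfb each lay closer to the score than each C1q gene did, with differences in r of 0.136 to 0.235 (permutation test, adjusted p 8e-05 to 0.0003 over 24 tests), and C1qc closer than C1qb (adjusted p = 0.00754). Between C2 and Cfb the difference did not pass (adjusted p = 0.301). Of 23175 probes, 3.01% were called higher with this score in limma, and C1qc, C2 and Cfb were, while C1qb at r = 0.440 was not. Below the lymphocyte split, where 487 of 23175 probes were called higher, C2 and Cfb alone of the 4 were called. With the first principal component removed 248 probes were called higher, and none of the 4 was among them. There r was 0.157 for C1qb, 0.201 for C1qc, 0.399 for C2 and 0.486 for Cfb. The calls on this score were 698 higher and 147 lower, and 1313 and 91 with the array medians subtracted, where C1qb was called as well. With quantile normalization they were 559 and 13, with 2 of the 4 genes called. Above the lymphocyte split r was 0.141 with C1qb and 0.219 with C1qc, not past the permutation test (adjusted p = 0.292 and 0.109, n = 57), and 0.524 with C2 and 0.487 with Cfb.

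The 3 scores were related, the macrophage score having r = 0.551 with the adipocyte score over all arrays and 0.599 with the interferon score below the interferon split, so all 3 were also fitted together to every probe with limma. The macrophage slope, in log2 ratio per SD of score, was 0.366 ± 0.022 (SE) for C1qb, 0.651 ± 0.033 for C1qc, 0.359 ± 0.027 for C2 and 0.686 ± 0.033 for Cfb, and all 4 were called (limma adjusted p at most 2.9e-29), as were 12.7% of 23130 probes in that direction. The adipocyte slope was 0.138 ± 0.018 for C2 (limma adjusted p = 1.05e-11) and 0.227 ± 0.022 for Cfb (limma adjusted p = 2.85e-20), among 10.6% of probes called higher. For the C1q genes it was close to 0: -0.011 for C1qb, with a 95% interval from -0.039 to 0.017, and 0.016 for C1qc, from -0.026 to 0.058. C1qa, the remaining chain, had -0.010 (interval -0.051 to 0.030). The interferon slope was 0.117 ± 0.026 for C2, called (limma adjusted p = 8.69e-05) with 13.0% of probes. It was 0.050 for Cfb (interval -0.011 to 0.112), -0.039 for C1qb and -0.053 for C1qc, none of them called. C1qa had -0.073 (interval -0.131 to -0.014) and was called lower (limma adjusted p = 0.0462), as were 4521 of 23130 probes.

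Below the lymphocyte split (262 animals) the scores were formed anew, so a slope is per SD of the score among those animals. The adipocyte slopes there were 0.135 for C2 and 0.233 for Cfb, both called, against -0.009 for C1qb and 0.010 for C1qc. The macrophage slopes were 0.268 for C1qb, 0.475 for C1qc, 0.215 for C2 and 0.459 for Cfb, all called. The interferon slopes did not all keep their sign. C2 stayed called at 0.083 (limma adjusted p = 0.00429), C1qc turned to 0.064 and was called (limma adjusted p = 0.0446), C1qb turned to 0.030 (limma adjusted p = 0.134) and Cfb to -0.012. C1qa had 0.005 and was not called (limma adjusted p = 0.917).

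**Figure D3:**
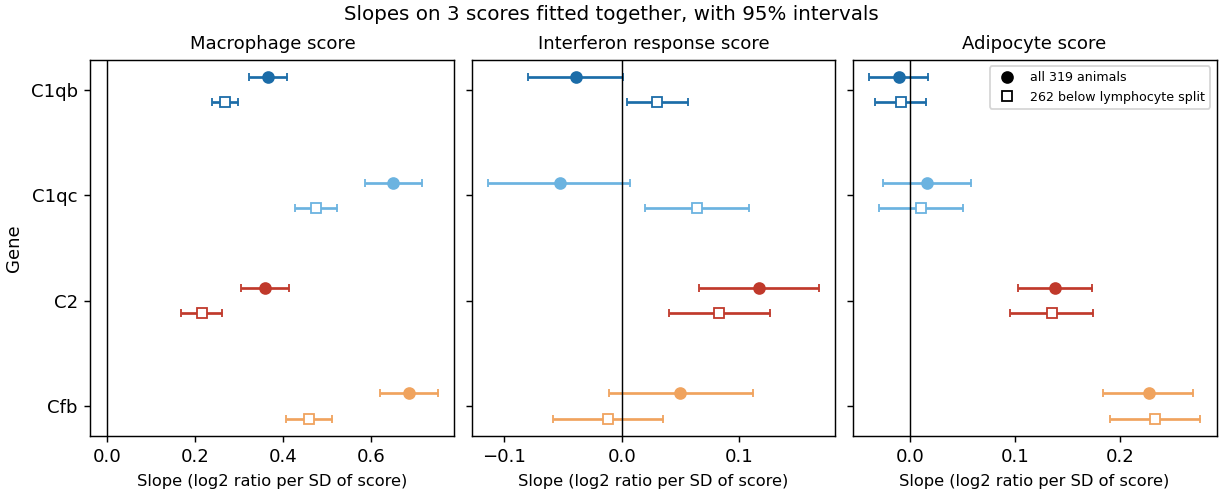
Slope of each gene, in log2 ratio per SD of score, on the macrophage, interferon response and adipocyte scores fitted together, with 95% intervals. Filled circles are all 319 animals and open squares the 262 below the lymphocyte split, with the scores formed anew among them. On the adipocyte score C2 (0.138) and Cfb (0.227) lie to the right of 0 and C1qb and C1qc have intervals that include 0.

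The slopes were also compared between members directly, each gene in SD units and the other 2 scores held (18 tests, permutation of residuals). On the adipocyte score, C2 (0.226) and Cfb (0.244) exceeded C1qb (-0.029) and C1qc (0.023), with adjusted p 2.25e-05 for all 4 comparisons, and C2 did not differ from Cfb beyond the threshold (adjusted p = 0.571). On the macrophage score the order was the reverse, with 0.935 for C1qb and 0.939 for C1qc against 0.590 for C2 and 0.737 for Cfb (adjusted p 2.25e-05 to 0.00535), and C2 and Cfb differed too (adjusted p = 0.00106). On the interferon score C2 at 0.192 exceeded Cfb at 0.054 (adjusted p = 0.00106), and both exceeded C1qb at -0.101 and C1qc at -0.077 (adjusted p 2.25e-05 for C2, 0.0198 and 0.0151 for Cfb). In the 262 animals the same adipocyte differences had adjusted p 2.57e-05, and C2 against Cfb on the interferon score also 2.57e-05. There the other interferon differences were not kept: Cfb at -0.023 lay below C1qb at 0.179 and C1qc at 0.216 (adjusted p = 0.0487 and 0.00734), and C2 at 0.348 did not differ from them beyond the threshold (adjusted p = 0.155 and 0.166).

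Single genes of the adipocyte list varied in how they followed the pairs. Plin1, which coats the fat droplet, had r = 0.801 with Cfb, 0.757 with C2, 0.596 with C1qc and 0.535 with C1qb. With the macrophage score held these became 0.673, 0.511, 0.052 and -0.022. Scd1, the desaturase of newly made fatty acids, went to 0.560 with Cfb and 0.445 with C2, against 0.050 with C1qc and -0.051 with C1qb. Pparg, the transcription factor of fat cell formation, went to 0.507 and 0.444 against -0.020 and -0.107. The median over the 13 genes was then 0.253 for Cfb and 0.219 for C2, against 0.014 for C1qc and -0.058 for C1qb, and -0.027 to 0.027 over all genes. Not every fat gene took part, as Lep, the hormone leptin, had 0.138 with Cfb and -0.111 with C2, and Retn, which encodes resistin, 0.065 and -0.004. Cebpa, another transcription factor of fat cells, ran the other way, with 0.179 for C1qb and 0.274 for C1qc against 0.115 for C2 and 0.003 for Cfb. Cd36, a fatty acid transporter, had 0.215 with C1qb, 0.109 with C1qc, 0.074 with C2 and 0.253 with Cfb. Car3, abundant in fat and in muscle fibres, had 0.338 with C2 and 0.082 with Cfb. The part of fat content of the tissue pieces in these relations was not tested.

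**Figure D4:**
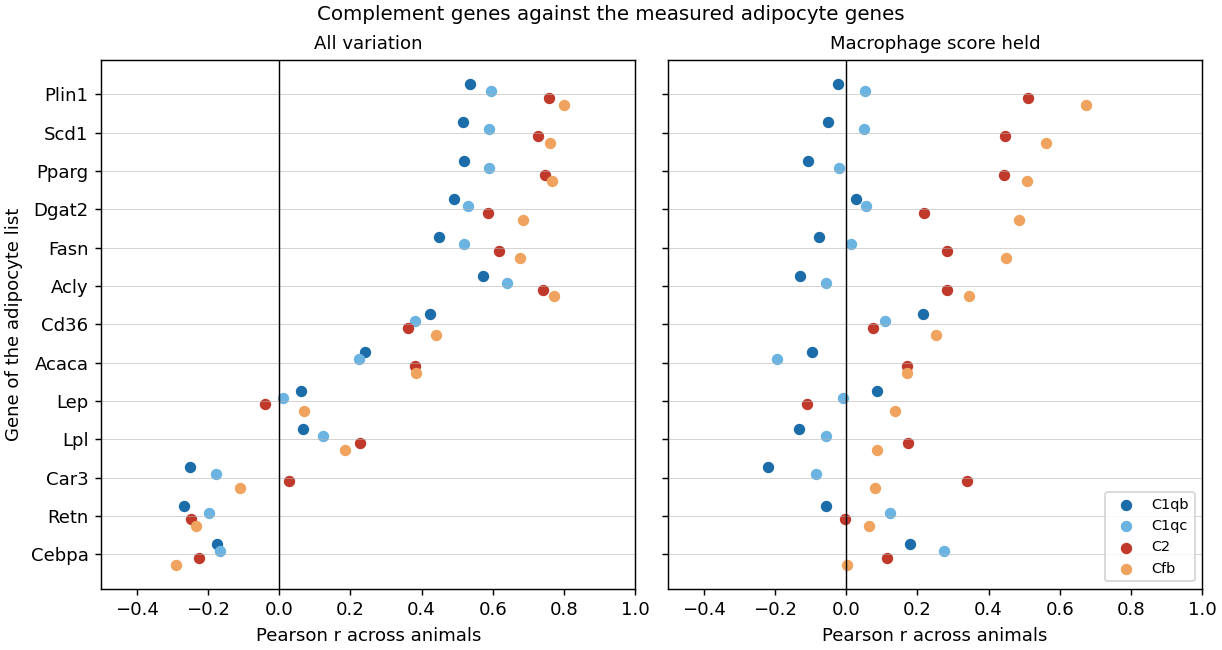
Pearson r of each measured gene of the adipocyte list (vertical axis) with C1qb, C1qc, C2 and Cfb across animals, as measured (left) and with the macrophage score held (right). On the right C2 and Cfb lie well above 0 for Plin1 (0.511 and 0.673), Scd1 and Pparg, and C1qb and C1qc lie near 0.

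Markers of other cell types were set beside the 4 genes. A score of matrix genes of fibroblasts (12 of 14, such as Col1a1 and Dcn) had r = 0.504 with C1qb, 0.604 with C1qc, 0.610 with C2 and 0.537 with Cfb over all arrays, and 0.636, 0.754, 0.749 and 0.669 below the lymphocyte split. Added to the joint fit, this score had a slope of 0.153 ± 0.022 for C1qc (limma adjusted p = 3.53e-10), 0.118 ± 0.018 for C2 (1.69e-08) and 0.046 ± 0.015 for C1qb (0.0175), called with 10.7% of 23117 probes, and -0.002 for Cfb (interval -0.049 to 0.044). The adipocyte slopes then were 0.089 for C2 and 0.228 for Cfb, both still called. Genes of NF-kB and the acute phase (17 of 18) followed Cfb at 0.779 and C1qb, C1qc and C2 at 0.605, 0.624 and 0.661, and below the split at 0.512, 0.459, 0.411 and 0.260. MHC class II genes (6 of 9) had 0.640 with C1qb, 0.543 with C1qc, 0.487 with C2 and 0.546 with Cfb below their own split. Interferon gamma targets (20 of 23) had 0.360 to 0.385 with the 4 genes below theirs. Above it they had r = 0.491 with C1qb, 0.454 with C1qc, 0.361 with C2 and 0.198 with Cfb (n = 59). Cfb did not pass there on r (adjusted permutation p = 0.186) but did on rho (0.334, adjusted permutation p = 0.018).

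No relation with the lymphocyte score passed the test within the 262 animals below its split, where r was 0.113 for C1qb, -0.041 for C1qc, -0.075 for C2 and 0.008 for Cfb (adjusted permutation p 0.109 to 0.894). Within the 57 high animals it was 0.408 for C2 and 0.467 for Cfb (adjusted permutation p = 0.00358 and 0.000714), and 0.247 and 0.276 for C1qb and C1qc, which did not pass (0.103 and 0.065). Erythroid genes lay between 0.013 and 0.053 over all arrays. Endothelial genes (9 of 9) had 0.112 to 0.145 over all arrays, where Cfb alone passed (adjusted permutation p = 0.0173), and 0.231 to 0.289 below the lymphocyte split, where all 4 passed (adjusted permutation p 2.9e-05 to 0.000459). Hepatocyte genes, from the tissue that makes most plasma complement, lay between -0.125 and -0.032 below the lymphocyte split. Below their own split (n = 304) C1qc alone passed on r, at -0.143 (adjusted permutation p = 0.0213). On rho Cfb passed there too, at -0.126 (adjusted permutation p = 0.0428). Neutrophil genes had 0.181 to 0.276 below theirs (n = 281, adjusted permutation p 2.9e-05 to 0.0041), and keratinocyte genes -0.247 to -0.183 (n = 280, 8.29e-05 to 0.00401). Neither list passed on r below the lymphocyte split (0.0532 to 0.417) or above its own split. Pygm, the glycogen phosphorylase of muscle fibres, had -0.506 with C1qb, -0.519 with C1qc, -0.623 with C2 and -0.600 with Cfb, and -0.266 to -0.323 below the split. The score of slow fibre genes, such as Myh7 and Tnnt1, had -0.078 to 0.039 over all arrays and -0.091 to 0.077 below the split. On r it passed with none (adjusted permutation p 0.198 to 0.537). On rho it passed with Cfb over all arrays (-0.119, adjusted permutation p = 0.0489). The part of cell make-up in the relations among the 4 genes was not tested beyond the scores held above.

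The rest of the pathway came from fixed lists of 50 complement genes, of which 34 were measured, 30 besides the 4 members. With C1qb as the predictor of every probe in limma, 10 of the 30 genes, by 10 of their 34 probes (29.4%), were called higher. None was called lower (11 of 34 probes had a negative r at an unadjusted limma p under 0.05). Of all probes, 4.08% were called higher and 0.975% lower. With C1qc it was 10 genes, by 11 probes (32.4%), and none (14 probes at that unadjusted p), against 5.87% and 2.06% of all probes. With C2 it was 10 genes higher, by 11 probes (32.4%), and 1 lower, by 1 probe (2.94%), against 8.06% and 6.81% of all probes. With Cfb the genes and probes called numbered the same, against 7.85% and 6.81%. Subtracting the array medians changed the calls over all probes from 945 higher and 226 lower to 1337 and 73 for C1qb, and from 1361 and 477 to 1738 and 90 for C1qc. For C2 they went from 1870 and 1580 to 2313 and 446, and for Cfb from 1820 and 1580 to 2231 and 482. The median r of the 34 probes was 0.309, 0.331, 0.246 and 0.343 with C1qb, C1qc, C2 and Cfb. Genes at the negative end included Masp2, the lectin pathway protease, with -0.303 to -0.415, and C6, a part of the membrane attack complex, with -0.268 to -0.413.

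Several early classical genes had high r with all 4 members. C1ra, the protease that activates within C1, had r = 0.862 with C2, 0.822 with C1qc, 0.790 with Cfb and 0.696 with C1qb. C1s1, the protease that C1ra cleaves, had 0.760 with C2 and 0.748 with C1qc, as the mean of 3 probes of which 1 did not follow the others. C4b, the partner of C2 in the convertase, had 0.762 with Cfb, 0.696 with C1qc, 0.656 with C2 and 0.659 with C1qb, and in the joint fit it had an adipocyte slope of 0.244 ± 0.042 (limma adjusted p = 5.26e-07). Serping1, the inhibitor of C1r and C1s, had 0.741, 0.775, 0.714 and 0.674 with C1qb, C1qc, C2 and Cfb. Fcna, a lectin of macrophages that starts the lectin pathway, was called with C1qb and C1qc over all arrays, at 0.571 and 0.589, and with all 4 below the lymphocyte split. C1ra, C1s1, C4b and Cd55 have near-identical copies in mouse, and which copy a probe reads was not tested.

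Receptors and regulators varied in which member they followed, and no difference in their r between members was tested. Itgax, a chain of complement receptor 4, had 0.699 with C1qb, 0.738 with C1qc, 0.713 with C2 and 0.861 with Cfb. Its partner chain Itgb2 had 0.611, 0.630, 0.599 and 0.695. C3ar1, the receptor for C3a, was called with C1qb (0.631) and C1qc (0.510) and had 0.342 with C2 and 0.403 with Cfb. Cd55 and Cd55b, which break up convertases on cell surfaces, had 0.711 and 0.650 with C2 over all arrays but 0.419 and 0.280 below the lymphocyte split. Hc, which encodes C5, likewise had 0.616 with C2 over all arrays and 0.287 below the split. C1qbp, a mitochondrial protein first found as a binder of C1q, was the gene called lower, at -0.536 with C2 and -0.610 with Cfb, and with the array medians subtracted it was called with Cfb alone. Below the lymphocyte split 7 complement probes were called with C2, against 12 over all arrays, and the receptors were not among them. Over all 23189 probes the calls with C2 went from 1870 higher and 1580 lower to 894 and 12. With C1qb, C1qc and Cfb the receptors C3ar1, Itgax and Vsig4 were called higher below the split, Vsig4 by 1 of its 2 probes. C1qbp was called lower there with Cfb. Genes of the list without a tested probe included C3, Cfd, Cfp, C4a and Itgam, so the alternative pathway was represented by Cfb alone.

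**Figure D5:**
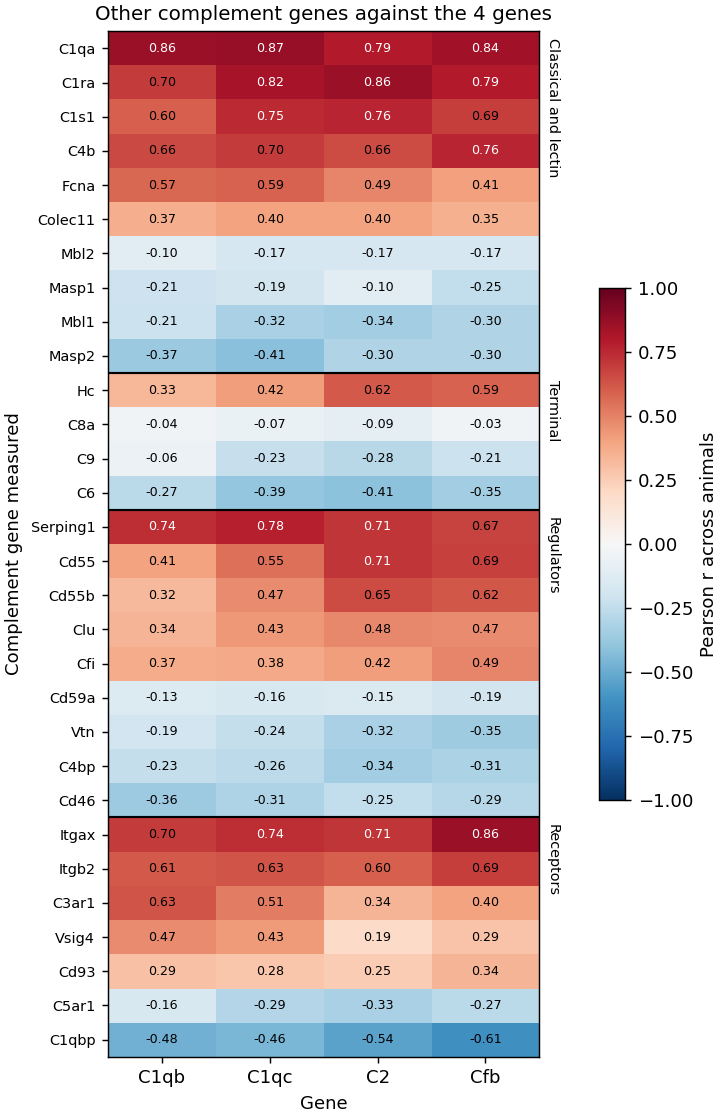
Pearson r across animals of 30 other complement genes (rows, grouped by role) with C1qb, C1qc, C2 and Cfb (columns). C1qa, C1ra, C1s1, C4b, Serping1, Itgax and Itgb2 are high in all 4 columns, C3ar1 is higher with C1qb (0.63) than with C2 (0.34), and C1qbp is lowest with Cfb (-0.61).

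The genes whose ratios were most like each member were ranked over all named genes, by Pearson r across 316 to 319 animals. The 8 closest to C1qb and the 8 closest to C1qc, members left out, shared 6: C1qa, the C-type lectin Clec4a1, Csf1r, and the Fc receptor genes Fcer1g, Fcgr1 and Fcgr3. C1qb had the chemokines Ccl9 (0.841) and Ccl8 (0.825) besides, and C1qc had Ptpro (0.886) and Dok2 (0.868). C2 and Cfb shared 1 of 8, Tmem176b, with 0.910 and 0.921. Each C1q gene also shared 1 with C2 (Csf1r) and 1 with Cfb (Fcer1g). For C2 the others were Rgl1 (0.903), Csf1r (0.886), Ctps2 (0.882), the B cell survival factor Tnfsf13b (0.880), Cmtm6 (0.869), the growth factor Igf1 (0.867) and Fam149a (0.865). For Cfb they were Ctss (0.912), Acp5 (0.908), Cotl1 (0.907), the macrophage gene Mpeg1 (0.903), Rrbp1 (0.899), Fcer1g (0.896) and Lgals3bp (0.885). Below the lymphocyte split these stayed at 0.762 to 0.846 for C2 and at 0.776 to 0.903 for Cfb.

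At the negative end the values were smaller, and closer to 0 without the 57 arrays above the lymphocyte split. The lowest r was -0.612 for C1qb with Rph3a, -0.648 for C1qc with Cacng5, -0.737 for C2 with Nags and -0.756 for Cfb with Alppl2. Among the other 262 these were -0.456, -0.437, -0.449 and -0.585. The 4 lowest genes for each member had SDs of 0.12 to 0.19, so their ratios varied little between animals.

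Neighbouring genes were compared to see whether the pairs belong to larger stretches that move together. In the gene order of the RefSeq table for GRCm38.p6, C1qb, C1qc and C1qa follow each other directly, and Cfb and C2 lie 2 places apart. Of the 10 genes on either side, 4 besides the C1q genes were measured near C1qb and C1qc (Luzp1, Kdm1a, Epha8 and Zbtb40), and their r lay between -0.238 and 0.060. Zbtb40 passed with C1qc, at -0.238, and with C1qb, at -0.141 (permutation p = 1e-05 and 0.0114, adjusted p 2.9e-05 and 0.0221 over 29 relations). Near C2 and Cfb, Nelfe, directly beside Cfb, had 0.262 with C2 and 0.238 with Cfb (permutation p = 1e-05 and 2e-05, adjusted p 2.9e-05 and 5.27e-05), and 0.102 and 0.075 below the lymphocyte split. Ehmt2 had 0.156 and 0.148 with C2 and Cfb, and Cyp21a1, a steroid hydroxylase gene, -0.429 and -0.407. Skiv2l had -0.147 with C2, which passed (adjusted permutation p = 0.0173), and -0.118 with Cfb, which did not pass on r (0.0591). On rho its relation with Cfb passed (-0.181, adjusted permutation p = 0.00217). Stk19, Dxo and Neu1 had r between -0.113 and 0.032 with C2 and Cfb, and Hspa1a -0.119 with C2, none passing on r. In all, 8 neighbours besides the members were measured near C2 and 7 near Cfb. C4b, which lies 14 places from C2 and 12 from Cfb, had 0.656 and 0.762 as given above. Apart from Hspa1a (SD 0.75), the measured neighbours had SDs of 0.11 to 0.20, against 0.39 to 0.93 for the 4 complement genes.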

How the data were processed

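Per the labels, muscle RNA of each of 319 animals (Cy3) was hybridised against a common pool (Cy5). The authors deposited 1 log10 ratio per probe and array. The unit was read from the values, which end at -2 and 2, and how images were processed is not stated there. Values were converted to log2, and 23190 probes with values on at least 80% of arrays were tested. Probes of a gene were averaged and named through the platform table and RefSeq GRCm38.p6. For arrays, their number limits the precision. Scores average standardised genes of a list without complement genes. A measure whose best split separated sides of at least 15 arrays by over 4 within-group SDs was treated as clustered. Correlations had two-sided permutation tests (100000 resamples, 20000 in alternatives) with Benjamini-Hochberg adjustment. Probe-wise fits used limma 3.58.1 in R 4.3.3, checked on simulated data. Named genes were all members and complement genes, the 8 highest and 4 lowest genes by r with each member, the 3 highest and 1 lowest of each score list, and the neighbours. Genes of a list outside that rule were chosen after their values were seen. The members and lists were chosen with earlier results of these data known. Alternatives were other scalings, subsets of arrays, probe filters and scores held.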

Additional observations from a re-analysis of the deposited data

How the results depend on the processing

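All 6 relations among the 4 genes and the 4 with the macrophage score kept their sign and passed their permutation test under every other scaling, subset of arrays and probe rule tried. With the first principal component removed, C2 had 0.469 with the macrophage score and was not among the 3 members called on it. None of the 4 was called on the interferon or the adipocyte score. In that setting 150, 14 and 248 probes in all were called higher on the macrophage, interferon and adipocyte scores. Of 308 correlations and slopes recomputed under an alternative, 284 kept their direction and their side of the threshold. Of 39 counts of calls, 27 stayed within 1.5 times the value given, as totals of both directions. The relations with the interferon score among the 50 animals above its split lost their call most often. With quantile normalization they were 0.262 for C1qb, 0.218 for C1qc, -0.000 for C2 and 0.239 for Cfb. Without the arrays of highest SD, C2 had 0.213, and among the 102 animals of lowest number C1qc had 0.292. With the macrophage score held they were 0.068, -0.070, -0.022 and 0.117, and Cfb below the split had 0.061. Cfb below the split had 0.021 with the first principal component removed. With the macrophage score held, r with the adipocyte score was -0.047 for C1qb and 0.039 for C1qc, and above the lymphocyte split, with the score formed there, 0.149 and 0.221. C1qb had 0.022 with C2 and -0.060 with Cfb with the macrophage score held, and 0.072 and -0.033 with all 3 held. Joint interferon slopes below the lymphocyte split turned to 0.030 for C1qb, 0.064 for C1qc and -0.012 for Cfb, and the adipocyte slope of C1qc turned to -0.047 with the matrix score added. The cause of these changes was not tested, apart from the fewer arrays of subsets.

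Probes called on the macrophage, interferon and adipocyte scores numbered 3540, 3001 and 845. By adjusted p alone they were 17533, 17378 and 15390, with the first principal component removed 150, 14 and 251, and below the lymphocyte split 824, 229 and 490. Below the interferon split 383 were called on the interferon score, and with array medians subtracted 1404 on the adipocyte score. Complement probes called with C2 numbered 7 below the lymphocyte split, against 12, while the calls over all probes went from 1870 higher and 1580 lower to 894 and 12. Scores held, the interferon-split subset and the matrix score were added after the data were seen. Signal over background was not in the values used, so its limit on low probes is unknown, and each gene rests on 1 probe.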

Other observations

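Over all arrays C2 and Cfb were slightly lower at higher animal numbers, which did not pass within either side of the lymphocyte split, a relation looked for after the data were seen. Over 319 animals r was -0.187 for C2 (rho -0.148, permutation p = 0.0007, adjusted p = 0.0028 over 4 tests) and -0.164 for Cfb (rho -0.130, p = 0.00339, adjusted p = 0.00678). Without the 2 animals farthest from the median, r was -0.171 and -0.156. C1qb and C1qc had -0.072 and -0.082 and did not pass (adjusted permutation p = 0.199 and 0.189). The median log2 ratio of C2 was -0.14 among the 102 animals with the lowest numbers, -0.49 among the next 103 and -0.49 among the last 114, and that of Cfb -0.48, -0.82 and -0.85. The arrays above the lymphocyte split lay unevenly over these ranges, 30 of the 102, 13 of the 103 and 14 of the 114, as did those above the interferon split, 25, 12 and 13. Below the lymphocyte split r was -0.055 for C2 and -0.018 for Cfb (n = 262), and above it -0.205 and -0.175 (n = 57), none past the permutation test (adjusted p 0.721 to 0.766 over 8 tests). What the number stands for is not stated in the labels. The number 227 is on 2 arrays, and 1 array has 399 in its title and 339, the number used here, in its source name.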
